A study of Mus musculus with 9 samples.

Results

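Chromatin accessibility was compared between Thy-1-negative cells of day 6 (D6T-) and of day 9 (D9T-), 2 of the 9 ATAC-Seq libraries of a mouse reprogramming series. Overlapping peaks of each library were merged on chromosomes 1 to 19, and regions of both libraries that shared at least 1 bp were joined and called common. The others were lost (called at D6T- and not at D9T-) or gained (called at D9T- and not at D6T-). The comparison held 130241 regions, of 205801 called in any of the 9 libraries.

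The cells were mouse embryonic fibroblasts (MEFs) from embryos that carry an IRES-EGFP cassette behind the Oct4 gene, infected with pMXs retroviruses for Oct4, Sox2, Klf4 and c-Myc (OSKM) and kept in feeder-free medium. D6T- and D9T- cells were taken 6 and 9 days after infection and sorted for lack of the fibroblast surface protein Thy-1, so both share the viruses, the medium and the gate and differ in the day. D6_siNT and D6_siH3.3 are Thy-1-negative cells of day 6 that had also been transfected, before infection, with a non-targeting siRNA or with one against H3.3, and D6_siNT was used as the other day 6 reference. D0 is the MEF culture before infection, D3 the culture of day 3, D12S+ and D16S+ are cells of days 12 and 16 sorted for the pluripotency marker SSEA-1, and iPSCs are cells labelled as fully reprogrammed. Each condition had 1 library, so no difference could be set against replicate spread and none was tested. A Thy-1-negative pool is a mixture of cells, and fewer cells with an open site cannot be told apart from a less open site in each cell.

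ATAC-Seq cuts open chromatin with the Tn5 transposase, so a peak marks DNA that is free of nucleosomes in part of the cells or all of them. In fibroblasts many distal enhancers are bound by AP-1, a dimer of Fos and Jun proteins, together with TEAD and Runx factors, and such sites are known to close as fibroblasts are reprogrammed. Oct4 reads the octamer motif, Sox2 the Sox motif and Klf4 the KLF motif.

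The sequences of 6 regions are shown because they carry motifs whose shares differed between lost and gained regions. They are the 200 bp around the highest summit (plus strand, mm9) of the single-copy regions of highest pileup with such a motif, where pileup is the number of tags stacked over the summit. The first 3 were called in both D6T- and D6_siNT and not at D9T-, and capitals mark AP-1 matches (TGANTCA).
Lost, chr8:130688995-130689194: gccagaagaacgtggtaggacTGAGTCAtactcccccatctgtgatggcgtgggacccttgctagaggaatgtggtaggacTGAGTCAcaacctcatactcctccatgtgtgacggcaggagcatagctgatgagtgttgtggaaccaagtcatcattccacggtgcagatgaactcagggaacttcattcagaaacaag
Lost, chr15:85254733-85254932: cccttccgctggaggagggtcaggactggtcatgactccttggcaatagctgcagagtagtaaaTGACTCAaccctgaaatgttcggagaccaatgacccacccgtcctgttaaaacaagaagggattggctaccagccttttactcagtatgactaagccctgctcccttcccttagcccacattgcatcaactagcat
Lost, chr15:27335568-27335767: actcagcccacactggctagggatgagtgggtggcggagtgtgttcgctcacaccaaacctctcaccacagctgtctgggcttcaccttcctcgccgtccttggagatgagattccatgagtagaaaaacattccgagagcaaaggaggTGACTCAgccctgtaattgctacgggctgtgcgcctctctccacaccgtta
The region on chromosome 8 is intergenic, 182 kb from the TSS of Gm17350, and holds 2 AP-1 matches. It had 62 tags at D0, 98 at D3, 101 at D6T-, 22 at D6_siH3.3 and 19 at D6_siNT, no call at D9T-, 18 tags at D12S+, and no call at D16S+ or in iPSCs. The first region on chromosome 15 lies in an intron of Atxn10, with 35 tags at D0, 75 at D3, 100 at D6T-, 26 at D6_siH3.3, 24 at D6_siNT and 21 at D12S+. The other is intergenic, 60.8 kb from the TSS of Ank, with 46 tags at D0, 99 at D3, 99 at D6T-, 19 at D6_siH3.3, 18 at D6_siNT, and 13 each at D12S+ and D16S+. All 3 were called at D0, had their highest pileup in CPM (counts of extended tags scaled to the total tags of the library) at D6T- and were not called in iPSCs.
The next 3 were called at D9T- and in neither D6T- nor D6_siNT, and capitals mark matches to the KLF (GGGTGTGG) or octamer (ATGCAAAT) motif on either strand.
Gained, chr12:103480493-103480692: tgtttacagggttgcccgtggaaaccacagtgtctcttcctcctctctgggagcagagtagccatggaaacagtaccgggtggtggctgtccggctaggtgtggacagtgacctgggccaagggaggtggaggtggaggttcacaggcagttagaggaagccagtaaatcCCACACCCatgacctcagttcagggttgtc
Gained, chr3:143787432-143787631: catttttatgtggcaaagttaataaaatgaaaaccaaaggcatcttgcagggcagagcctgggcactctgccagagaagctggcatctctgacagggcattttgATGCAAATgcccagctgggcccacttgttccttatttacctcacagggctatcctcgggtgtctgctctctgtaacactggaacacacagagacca
Gained, chr1:190830220-190830419: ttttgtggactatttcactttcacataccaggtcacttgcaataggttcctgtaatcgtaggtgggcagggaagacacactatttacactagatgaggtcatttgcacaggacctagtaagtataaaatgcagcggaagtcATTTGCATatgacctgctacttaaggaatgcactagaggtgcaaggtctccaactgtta
The region on chromosome 12, in an intron of Slc24a4, holds a KLF match and also a RUNX match (TGTGGTT), which is not in capitals. It had 9 tags at D6_siH3.3, 15 at D9T-, 17 at D12S+, 11 in iPSCs and 16 at D16S+. The region on chromosome 3 is intergenic, 70.2 kb from the TSS of Lmo4, holds an octamer and was called at D9T- alone with 15 tags. The region on chromosome 1 lies in an intron of Kctd3, 1.40 kb from a TSS of that gene, holds an octamer and had 14 tags at D9T-, 12 at D12S+ and 13 in iPSCs. These gained regions were weak beside the lost ones. Of all 130241 regions, 33.2% held an AP-1 match in such a window, 3.81% a KLF match and 1.76% an octamer.

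Depth and library shape bear on every count below. D6T- had 21390800 tags and 129532 regions, D6_siNT 21784047 tags and 45312 regions, and D9T- 13213117 tags and 35811 regions. The weakest region called had 8 tags (0.374 CPM) at D6T-, 9 (0.413) at D6_siNT and 7 (0.530) at D9T-. The D6T- library stood apart from the other day 6 library of the same gate. D6_siNT lacked 88398 of its regions (68.2%) and had 1237 of its own, and over common regions its normalised pileup (highest pileup in CPM) had a median log2 change of -1.22. The main results are therefore given against D6_siNT too. The methods state that mitochondrial reads were removed, but the files list peaks on that chromosome, whose highest pileup in CPM was 1255 at D6T-, 1041 at D6_siNT and 1924 at D9T-. Whether the total tags hold such reads, and their part in the results, was not tested.

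Between D6T- and D9T-, 96912 regions were lost, 814 were gained and 32515 were common. The lost regions were 74.8% of those at D6T-, and the gained 2.27% of those at D9T-. Of the lost regions, 19802 (20.4%) had a lower CPM at D6T- than the weakest region called at D9T-, so their loss was not detectable at this depth. Among equal numbers of regions of highest pileup (35811 in each library, at least 29 tags at D6T-), 11323 (31.6%) were lost and 8981 (25.1%) gained, and 8167 of those gained had been called at D6T- with fewer tags. With D6_siNT as the day 6 library, 17026 (37.6%) were lost and 6905 (19.3%) gained. Of the 41134 D6T- regions also called at D6_siNT, 34.4% (14146) were lost, and 654 regions were gained against both.

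**Figure D1:**
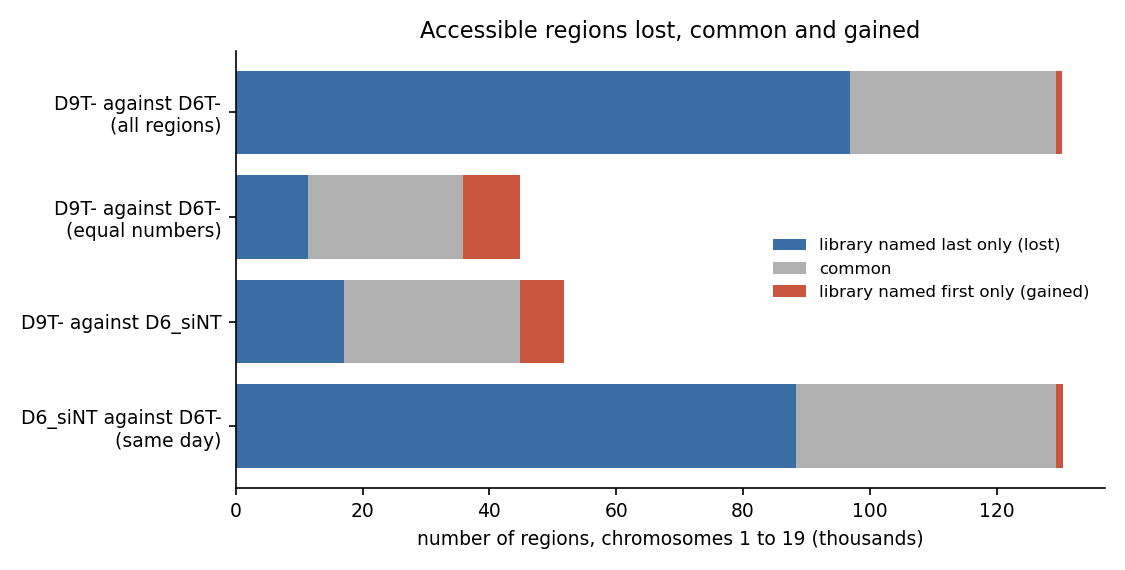
Numbers of regions on chromosomes 1 to 19 in 4 comparisons, with regions of the library named last only (lost), of both (common) and of the library named first only (gained). The bars of D9T- against D6T- (96912 lost) and of the 2 day 6 libraries (88398 lost) are alike, and the other bars hold 11323 and 17026 lost regions.

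A D6T- region was called again more often the higher its pileup. At D9T- 2.55% of regions with 8 to 11 tags were called, 51.5% of those with 32 to 47 tags and 96.7% of those with at least 64 tags. At D6_siNT the shares were 3.99%, 68.9% and 98.7%. Kinds of region were therefore compared at equal D6T- pileup, with D6_siNT beside D9T-. Among regions of 32 to 47 tags outside promoters, those with an AP-1 match were called at D9T- in 40.2% (95% Wilson interval 38.9 to 41.5) and at D6_siNT in 62.9% (61.6 to 64.1). Those without one were called in 56.1% (55.0 to 57.3) and 69.7% (68.6 to 70.8). The gap between D6_siNT and D9T- was wider with the AP-1 motif than without it. The intervals cover counting error only.

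The split by history was wider. At the same pileup, regions called at D0 and not in iPSCs were called at D9T- in 33.0% (31.7 to 34.2) and at D6_siNT in 56.7% (55.4 to 58.0). Regions called in iPSCs and not at D0 were called in 74.2% (71.3 to 76.9) and 77.0% (74.2 to 79.5). Both shares are of the same D6T- regions, so their separate intervals do not show whether the shares differ. Regions with a RUNX match (TGTGGTT) were called in 36.4% and 63.1%, and those with a TEAD match (ACATTCC) in 45.3% and 58.4%. For the Sox match (ACAATGG) the shares were 55.6% and 78.0%, for KLF 64.5% and 82.0%, and for the octamer 67.7% and 76.5%. Regions with a match for CTCF (CNAGNNGGC), the insulator protein, were called in 54.3% and 65.9%, and promoter regions in 64.5% and 80.1%. Among the kinds compared here outside promoters, D0-type and RUNX regions had the lowest shares at D9T- and iPSC-type and octamer regions the highest.

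**Figure D2:**
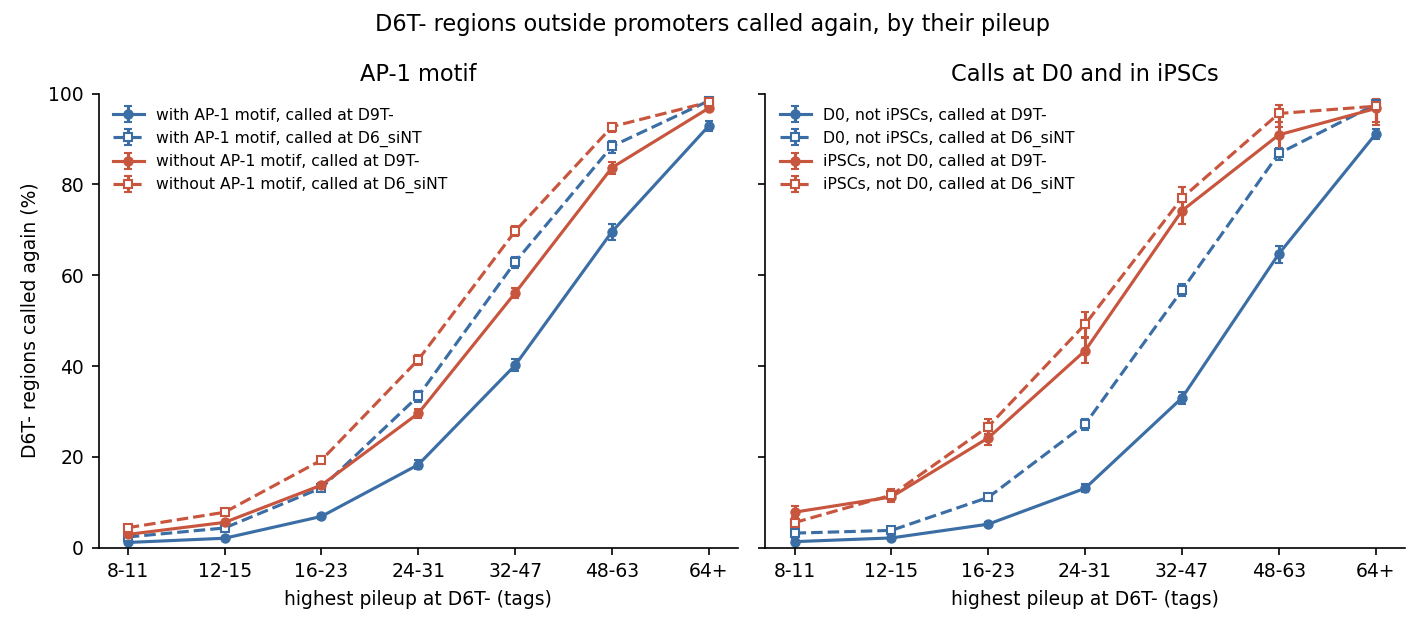
Share of D6T- regions outside promoters (%) that D9T- (filled points) or D6_siNT (open points) also called, by the highest pileup at D6T- (tags), with 95% Wilson intervals. At 32 to 47 tags the D0-type regions stand at 33.0% and 56.7% and the iPSC-type regions at 74.2% and 77.0%.

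The normalised pileup of the 32515 common regions was lower at D9T- than at D6T- in 29484, with a median log2 change of -1.02 (quartiles -1.41 and -0.55). Against D6_siNT the direction turned, with a median of 0.22 (quartiles -0.09 and 0.53) over 27828 common regions. Changes are therefore given relative to the median. On that scale 3229 regions (9.93%) were at least 2-fold higher and 1075 (3.31%) at least 2-fold lower, and against D6_siNT 516 (1.85%) and 439 (1.58%).

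Promoter regions, with their midpoint in the 3 kb upstream of a TSS, had a median log2 change of -1.21 (n = 8495), genebody regions of -1.01 (n = 13740) and intergenic regions of -0.84 (n = 10280). Against D6_siNT the medians were 0.18, 0.24 and 0.26, the same order over a narrower range. Between the 2 day 6 libraries they were -1.36, -1.21 and -1.11, so the spread between positions is also seen with no difference in day. Outside promoters, regions called at D0 and not in iPSCs had a median of -1.20 and those called in iPSCs and not at D0 of -0.47, and against D6_siNT 0.19 and 0.38. Between the 2 day 6 libraries these medians were -1.40 and -0.87, so a gap of this direction is also seen on the same day. Of the iPSC-type regions 25.7% were at least 2-fold above the general median and 0.358% at least 2-fold below it, and against D6_siNT 4.33% and 0.574%. Common regions outside promoters with an octamer had a median of -0.63, those with a Sox match -0.72, with a KLF match -0.74 and with an AP-1 match -1.07. Against D6_siNT the medians were 0.33, 0.28, 0.27 and 0.22, and between the 2 day 6 libraries -0.96, -0.97, -1.03 and -1.25.

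**Figure D3:**
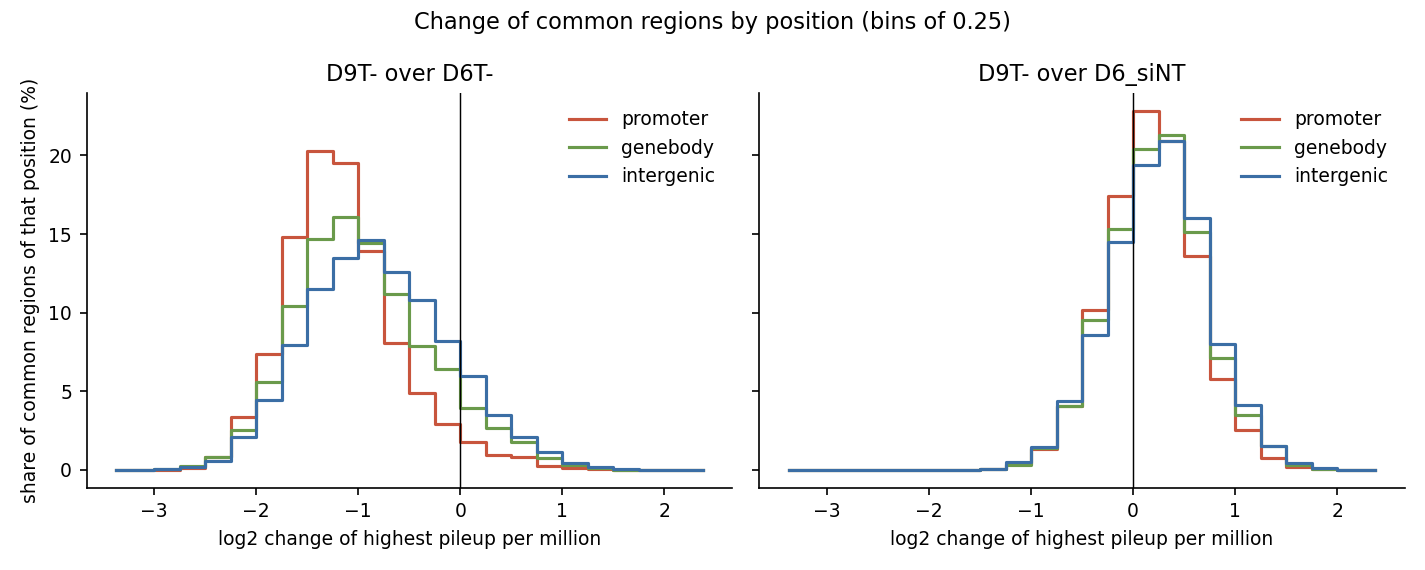
Distribution of the log2 change of normalised pileup over common regions (share of the regions of a position, %, in bins of 0.25). Against D6T- (left) promoters lie lowest (median -1.21) and intergenic regions highest (-0.84), and against D6_siNT (right) the curves nearly coincide (0.18 to 0.26).

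Lost and gained regions lay mostly outside promoters. Of the gained regions 9.83% (95% Wilson interval 7.97 to 12.1) were promoter, 41.8% genebody and 48.4% intergenic, and of the lost regions 11.3%, 46.3% and 42.3%. Of the common regions 26.1% were promoter. Gained regions had a median of 10.0 tags and at most 23, and 44.5% had 7 to 9 tags. Common D9T- regions of like strength (9 to 11 tags) were promoter in 23.3%. Beside these the gained regions had a lower GC content (47.9% and 52.6%) and were more often multi-copy (8.11% and 1.44%), meaning that at least 50% of the 51-base words sampled around the summit occur elsewhere in the genome.

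Lost regions held an AP-1 match in a larger share than gained regions against each day 6 reference. An AP-1 match was found in 35.6% of the lost (35.3 to 35.9), 26.5% of the common and 11.1% of the gained regions (9.08 to 13.4). The shares were 50.7% of the lost and 19.7% of the gained among equal numbers, 31.9% and 21.7% against D6_siNT, and 38.4% and 11.5% against both day 6 libraries. A RUNX match was found in 7.43% of the lost and 3.56% of the gained. The octamer was found in 1.57% of the lost (1.49 to 1.65) and 3.81% of the gained (2.70 to 5.35), a KLF match in 3.33% and 7.25%, and a Sox match in 4.34% and 6.02%. Against D6_siNT these gaps were smaller, with an octamer in 1.84% of the lost and 2.62% of the gained and a KLF match in 4.45% and 5.18%, and for Sox the shares were 5.10% and 5.03%. Against both day 6 libraries the octamer shares of lost and gained regions were 1.68% and 4.43%, the KLF shares 4.63% and 7.80% and the Sox shares 5.66% and 6.88%. Common D9T- regions of like strength held an AP-1 match in 25.3%, an octamer in 2.13% and a KLF match in 4.67%. A CTCF match was found in 12.7% of the lost and 12.8% of the gained.

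Lost regions were called at D0 in 31.1%, at D3 in 46.1%, at D12S+ in 19.5%, at D16S+ in 14.0% and in iPSCs in 15.1%. Gained regions were called in 17.0%, 24.0%, 38.2%, 41.2% and 38.2% of cases in the same libraries. The shares of gained regions were the lower ones at D0 and D3 and the higher ones at D12S+, D16S+ and in iPSCs. They lay below those of common D9T- regions of like strength, which were called at D12S+ in 64.9%, at D16S+ in 46.5% and in iPSCs in 44.3%. The subsets that rest on both day 6 libraries kept that order at all of these times but D12S+, where 41.7% of the lost (median 26.0 tags at D6T-) and 34.4% of the gained were called. At D16S+ they stood at 25.5% and 34.6%. Of all gained regions 264 (32.4%) were called in no other library, and of all lost regions 34111 (35.2%).

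**Figure D4:**
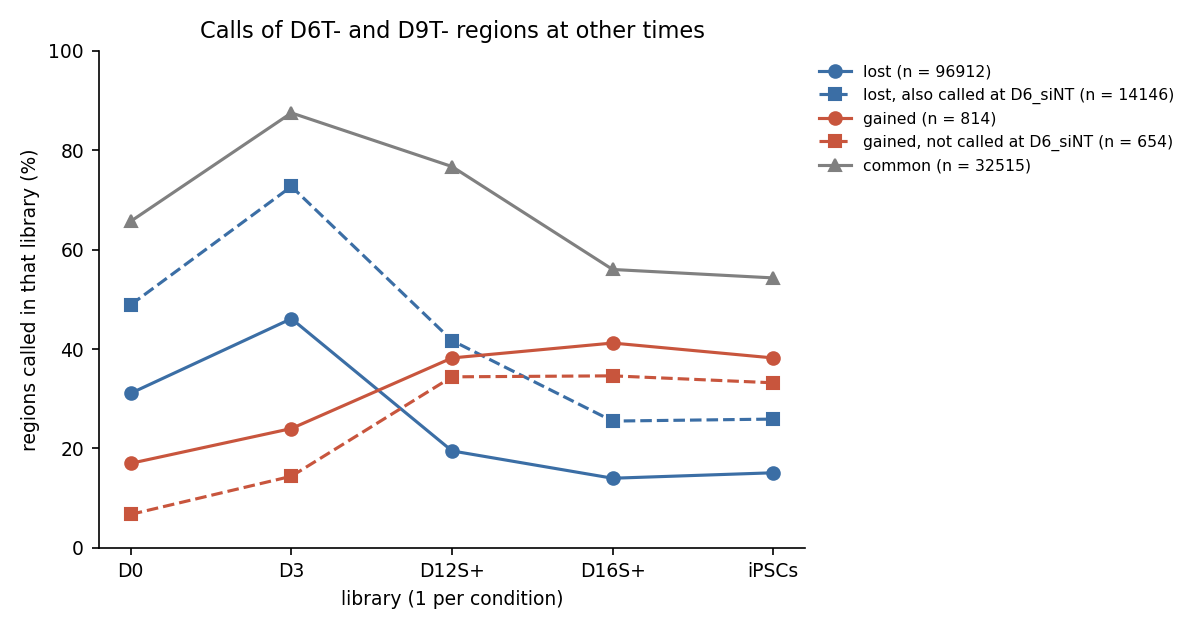
Share of lost, gained and common regions (%) called in each of 5 other libraries, 1 per condition. Lost regions were most often called at D3 (46.1%) and gained regions at D16S+ (41.2%), and for the subsets that rest on both day 6 libraries (dashed) the order turns between D12S+ and D16S+.

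The lost regions of highest pileup were multi-copy loci. The 5 strongest, 4 on chromosome 6 near Pdia4 and Ezh2 and 1 at the promoter of Gm13275 on chromosome 4, had 529 to 967 tags at D6T-, and all sampled words had other copies. They had 524 to 1117 tags at D3, 224 to 687 at D12S+ and 271 to 888 at D16S+, and were called in none of D0, D6_siNT, D6_siH3.3, D9T- and iPSCs. The methods state that ambiguously mapped reads were removed, and how tags came to lie at such loci was not tested. These calls did not follow the order of days, since day 6 libraries fell on both sides. The 5 common regions that fell most were also high at D3, D6T-, D12S+ and D16S+ and low in the other libraries. A region in an intron of Fcgr3, an Fc receptor gene, had 24 tags at D0, 423 at D3, 410 at D6T-, 33 at D6_siNT, 9 at D9T- and 192 at D12S+, a log2 change of -3.79 relative to the median, and of -1.38 against D6_siNT. In this region 60% of the sampled words had other copies, so it was multi-copy. The others lay near Fcgr3, Gm8112 and Gm8137 and in an intron of Tex14, and against D6_siNT they were between -0.50 and 0.29. Those near Fcgr3, Gm8112 and Gm8137 were also multi-copy (60%, 100% and 100%), and the one in Tex14 was not (20%).

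Regions called in both day 6 libraries, chosen after their values were seen, included the 3 lost regions printed above. A further one, in a UTR of Wwc1 (chr11:35652429-35652980), which encodes a regulator of the Hippo pathway, had 29 tags at D0, 70 at D3, 97 at D6T-, 23 at D6_siNT and 17 at D12S+. Its D6T- pileup scaled to the depth of D9T- was 59.9 tags, far above the weakest D9T- region. At D6_siNT it had 1.06 CPM, beside 0.530 for the weakest D9T- region. The 3 printed lost regions had 0.872, 1.10 and 0.826 CPM at D6_siNT in the order printed. The losses of these regions from D6_siNT thus rest on far fewer tags than those from D6T-. Against D6_siNT the common region that fell most lay at chr3:140775364-140776014, 99.7 kb from Pdha2, with an AP-1 and a Sox match. It had 62 tags at D6T-, 52 at D6_siNT, 30 at D6_siH3.3 and 8 at D9T- and no call in the other libraries, so it was called at days 6 and 9 alone (log2 change relative to the median -1.23, and -2.20 against D6_siNT). A region in an intron of 2810025M15Rik, 5.48 kb from the TSS of Rasal2, had 76, 43, 38 and 9 tags in the same 4 libraries (-1.36 and -1.76).

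Of the 5 strongest gained regions, 2 were called in all libraries but D6T-, so that their gain rests on that library. These were a region 110 kb from Cartpt, with 23 tags at D9T- and 39 at D6_siNT, and a multi-copy region 334 kb from Samd9l, with 17 and 15 tags. A region in an intron of Acss1, an enzyme that makes acetyl-CoA from acetate, had 19 tags at D9T- and was called nowhere else. A region 33.3 kb from Lbh had 18 tags at D9T- and 9 at D6_siNT. The last, 8.59 kb from Gm6871 with a CTCF match, had 17 tags at D9T-, 20 at D12S+, 16 at D16S+ and 26 in iPSCs and was called in no library before D9T-. Of the 5 common regions that rose most, those nearest to Cdh12, Olfr161 and E030030I06Rik had 27, 21 and 68 tags at D9T- and 34, 31 and 105 at D6_siNT, which is 0.16, -0.06 and -0.13 relative to the median against that library. The one nearest to Olfr161 was multi-copy (80%). The region nearest to Chi3l4 had 12 tags at D6T-, 19 at D6_siNT, 27 at D9T-, 40 at D12S+ and 65 at D16S+, and that nearest to Ywhaq had 11 at D6T- and 24 at D9T- and no call elsewhere. The promoter of Serpina3i, a serine protease inhibitor gene, rose against both references, with 28 tags at D6T-, 11 at D6_siNT, 27 at D9T- and 31 at D12S+ (1.67 and 1.79 above the median of common regions).

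Of 21418 protein-coding genes, 14790 had a region that reached into the 3 kb upstream of a TSS (a promoter call) at D6T-, 11928 at D6_siNT and 10982 at D9T-. Of the D6T- genes 3823 (25.8%) were not called at D9T-, and 1354 of these were called at D6_siNT. In 322 of the 3823 the D6T- region overlapped a D9T- region that lay outside the promoter window, so that a D9T- region was still called beside the window, and 3501 had no such overlap. Of the D9T- genes 15 (0.137%) were not called at D6T-. Against D6_siNT 1376 genes (11.5%) were lost and 430 (3.92%) gained. Over the 10967 promoters called on both days the median log2 change was -1.27, with 285 (2.60%) at least 2-fold above it and 113 (1.03%) at least 2-fold below it. Against D6_siNT the median was 0.15, with 128 (1.21%) above and 122 (1.16%) below. The highest region was used for each gene, so the values of 2 libraries can come from different regions. Over loci from promoter to TTS, 70.1% of the D6T- regions and 33.0% of the D6_siNT regions were lost. The shares of the gene lists below and those over all genes were not matched for pileup. Of D6T- promoter regions with 16 to 23 tags 12.5% were called at D9T-, and of those with at least 64 tags 98.9%.

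The genes of the sorting markers were looked at first. Thy1 encodes Thy-1 itself. It had promoter calls of 0.410 CPM at D0 and 0.562 at D3, and none in D6T-, D6_siNT or D9T-. Among later cells, iPSCs had 0.489 CPM, D16S+ 0.567 and D12S+ 0.625, so the promoter was called again after D9T-. The D3 call stood at the median of the D3 regions (0.562 CPM), and each other call lay below the median of its library. The D0 value lay under the weakest region called at D9T- (0.530 CPM) and at D6_siNT (0.413). The D3 value was little above the weakest D9T- region. A missing Thy1 call in these libraries therefore cannot check the gate. Fut9, a fucosyltransferase that makes SSEA-1, had 0.496 at D3, 0.982 at D6T-, no call at D6_siNT, 0.681 at D9T- and 1.65 at D12S+, but from different regions. The D6T- and D9T- values came from chr4:25550353-25550810, inside the gene, which was not called at D3 or D12S+. The D3 and D12S+ values came from chr4:25726803-25727454, at the start of the gene, which had 13 tags at D6T- and was lost at D9T-. Of 10 fibroblast markers 8 had a promoter call at D6T-, 5 at D6_siNT and 4 at D9T-, and of 10 pluripotency markers 5, 3 and 2. Over all 21418 protein-coding genes the numbers were 14790, 11928 and 10982, and 25.8% of the D6T- promoter calls were lost. The fibroblast markers lost were Postn, Col3a1, Col1a2 and Pdgfrb, of which Col3a1 (1.31 at D6T-, 0.689 at D6_siNT) was the one also called at D6_siNT. The pluripotency markers lost were Utf1 (1.45), whose D6T- region still overlapped a D9T- region outside the promoter window, Tdh (0.748) and Esrrb. Fut4, which also makes SSEA-1, had 1.68 at D6T- and no promoter call at D6_siNT or D9T-, but its D6T- region overlapped a D9T- region outside the promoter window.

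Mesenchymal and fibroblast genes had 25 promoter calls at D6T-, of which 9 were lost (25.8% over all genes) and none was gained. Against D6_siNT 5 of 20 were lost (11.5% over all genes) and 1, Col6a1, was gained. The 16 promoters called on both days had a median log2 change of -1.28, beside -1.27 for all genes, and none passed 2-fold. Against D6_siNT the list lay -0.19 from the median of all promoters. Over the 26 loci 80.3% of the D6T- regions were lost, beside 70.1% over all genes, and of the D6_siNT regions 47.7%, beside 33.0%. Twist2, a transcription factor of the mesenchyme, stood at 0.725 CPM in D0 cells, 0.893 in D3 cells and, on day 6, 1.68 (D6T-) and 0.643 (D6_siNT), and had no promoter call at D9T-, D12S+, D16S+ or in iPSCs. Prrx1, a homeobox gene of mesenchyme, kept a promoter call (1.78, 0.459 and 0.681 at D6T-, D6_siNT and D9T-). That call was a region (chr1:165221933-165222519) 2.91 kb from a TSS inside the gene. The region over the start of the gene (chr1:165243506-165244303), with 17 tags at D6T- and no call at D6_siNT, was lost. The Prrx1 locus had 16, 7 and 3 regions in the same libraries. Among those lost was an intronic region at chr1:165203258-165203717 with an AP-1 and a KLF match, with 17 tags at D0, 36 at D3, 61 at D6T-, 19 at D6_siNT and 10 at D6_siH3.3 and no call in the other 4 libraries. Snai2, which drives the epithelial-mesenchymal transition, had 2.99, 1.15 and 1.82 CPM, 0.55 above the median of all promoters, and 0.51 above it against D6_siNT.

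Postn, a matrix protein gene, was called at D0 (1.10 CPM), D3 (1.82), D6T- (2.34) and D6_siH3.3 (0.696) and in no other library, D6_siNT included. Lox, which crosslinks collagen, had 2.06 at D6T-, 0.643 at D6_siNT, no call at D9T- and 0.738 at D12S+. Cdh11, a mesenchymal cadherin, had 2.95, 0.826, no promoter call and 0.795, but its D6T- region overlapped a D9T- region outside the promoter window. Col1a1, a chain of type I collagen, stayed called (1.87, 0.734 and 0.833) and lay 0.11 and 0.03 above the median, while its locus had 6, 2 and 1 regions. At the depth of D9T- the D6_siNT pileups of Twist2, Lox and Cdh11 would be 8.49, 8.49 and 10.9 tags, beside 7 tags for the weakest D9T- region, so that these losses from D6_siNT rest on a few tags.

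Contractile genes lost 4 of 11 promoter calls, and 3 of 10 against D6_siNT, beside 25.8% and 11.5% over all genes. Cnn1 (calponin) had 2.34 CPM at D6T-, 0.597 at D6_siNT, no call at D9T- and 1.02 at D12S+, and Tagln (transgelin) 1.59, 0.918, no call and 0.795. Cnn2 (1.36 at D6T-) and Myl9 (0.561) were the others. At the depth of D9T- the D6_siNT pileups of Cnn1, Cnn2 and Tagln would be 7.89, 7.28 and 12.1 tags, beside 7 tags for the weakest D9T- region. The losses of Cnn1 and Cnn2 from D6_siNT therefore rest on a few tags. Over the contractile loci 83.3% of the D6T- and 48.1% of the D6_siNT regions were lost, beside 70.1% and 33.0% over all genes. The 7 kept promoters had a median of -1.31, -0.04 relative to all promoters and 0.21 against D6_siNT.

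TEAD and YAP genes lost 3 of 13 promoter calls against either reference, Ankrd1, Tead2 and Tead3, beside 25.8% and 11.5% over all genes. At the depth of D9T- their D6_siNT pileups would be 13.3, 6.67 and 8.49 tags, so that the loss of Tead2 from that library was not detectable. Ankrd1, a target of YAP, had 2.15 CPM at D3, 2.66 at D6T-, 1.01 at D6_siNT, no call at D9T- and 0.681 at D12S+. Lats2, a kinase that restrains YAP, fell against both references, with 2.80, 0.964 and 0.530 CPM (-1.13 and -1.01 relative to the median), the last from 7 tags. Its log2 change was -2.40 (95% exact counting interval -3.78 to -1.27). All 12 TGF-beta genes kept a promoter call, with a list median of -0.23 relative to all promoters and -0.34 against D6_siNT. Tgfb1, a ligand, had 2.43, 1.15 and 0.605, -0.73 relative to the median and -1.07 against D6_siNT, the second past 2-fold.

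Genes of AP-1 subunits lost 2 of 9 promoter calls, Fosl1 and Batf3, against either reference, beside 25.8% over all genes against D6T- and 11.5% against D6_siNT. The D6_siNT pileup of Batf3 would be 6.07 tags at the depth of D9T-, under the weakest region called there, so its loss from that library was not detectable. Fosl1 stood at 0.914 CPM in D0 cells and 1.03 in D3 cells, and had 2.43 at D6T-, 0.826 at D6_siNT, no call at D9T- and 0.908 at D12S+. These values came from different regions. Those of D0 and D6T- came from chr19:5444851-5445366, which was not called at D6_siNT or D12S+. Those of D3, D6_siNT and D12S+ came from chr19:5447435-5448062, at the start of the gene, with 48 tags at D6T- and no call at D0. An intronic region of Fosl1 with an AP-1 match (chr19:5448510-5449121) stayed called, with 41 tags at D6T-, 12 at D6_siNT and 7 at D9T-. Jun had 7.53, 4.27 and 3.48 CPM, 0.16 relative to the median and -0.44 against D6_siNT. Fosl2 had 5.52, 2.30 and 2.04 (-0.16 and -0.32). Of the 7 promoters called on both days 2 lay above the median of all promoters, and 1 of 7 against D6_siNT, and none passed 2-fold. The list median was -0.15 relative to all promoters and -0.44 against D6_siNT.

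**Figure D5:**
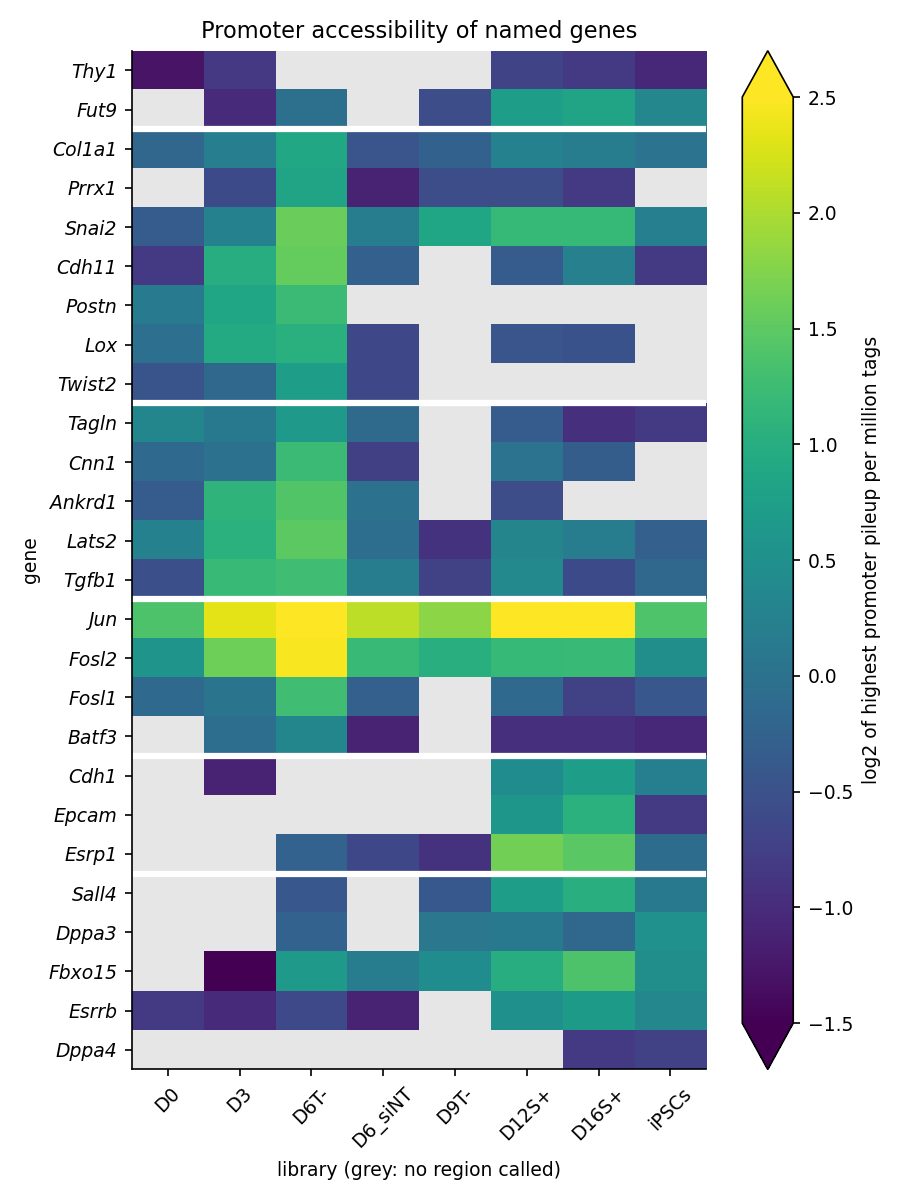
Log2 of the highest promoter pileup in CPM (colour) of named genes, grouped by role, in 8 libraries, with grey for no call. Twist2 is grey from D9T- on and Postn from D6_siNT on, Fosl1 and Tagln are grey at D9T- alone, and Sall4 and Dppa3 are called at D6T- and D9T- and not at D6_siNT.

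Epithelial genes gained no promoter call against D6T-. Of 24 genes 17 were called at D6T-, 10 at D6_siNT, 8 at D9T- and 21 at D12S+. Cdh1 (E-cadherin) had 0.463 CPM at D3, no promoter call in D6T-, D6_siNT or D9T-, and 1.36 at D12S+. Inside the gene an intronic region with an AP-1 match (chr8:109143401-109144133) had 31 tags at D6T-, 13 at D6_siNT, 13 at D9T- and 34 at D12S+, 0.47 and 0.50 above the median of common regions. Another (chr8:109155746-109155976) was gained, with 10 tags at D9T- and 11 at D12S+, and 4 others, with 11 to 20 tags at D6T-, were lost. Epcam, a surface marker of epithelial and pluripotent cells, had no promoter call before 1.53 at D12S+. A region in its UTR (chr17:88035726-88036431) had 19 tags at D6T-, 9 at D6_siNT, no call at D9T- and 27 at D12S+. Esrp1, a splicing factor of epithelia, had 0.841, 0.643 and 0.530, and 3.12 at D12S+. Esrp2, Dsp, Grhl2 and Grhl3 were called at D6T- (1.12, 1.08, 0.841 and 0.841) and not at D9T-. Over the list 9 of 17 were lost, and 3 of 10 against D6_siNT, beside 25.8% and 11.5% over all genes. The promoters of Esrp2, Dsp, Grhl2 and Grhl3 were weak at D6T- (24, 23, 18 and 18 tags), and these shares are not matched for pileup. At the depth of D9T- the D6_siNT pileup of Dsp would be 6.67 tags, under the weakest region called there (7 tags). Those of Esrp2 and Grhl3 would be 7.89 tags each, so that their losses from D6_siNT rest on a few tags.

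Pluripotency genes lost 9 of 25 promoter calls and gained none, and against D6_siNT 3 of 16 were lost and 3 gained. Over all genes 25.8% were lost and 0.137% gained, and against D6_siNT 11.5% and 3.92%. The 16 called on both days had a median log2 change of -1.05, 0.23 above that of all promoters, and 12 of them lay above it. Against D6_siNT the list lay 0.16 above. The 3 promoters at least 2-fold above the median against D6T- were those of Dppa3, Sall4 and Fbxo15, although before centring Sall4 was nearly level and Fbxo15 lower at D9T-. Dppa3 (Stella) had 18 tags (0.841 CPM) at D6T-, no call at D6_siNT, 14 tags (1.06) at D9T- and 19 (1.08) at D12S+, 1.61 above the median, with a log2 change of 0.33 (95% exact counting interval -0.79 to 1.42). Sall4, a zinc finger factor, had 0.748, no call, 0.757 and 1.65 (1.29 above the median), with a log2 change of 0.02 (interval -1.28 to 1.25). Its D6T- and D12S+ values came from chr2:168592339-168592950, which was lost at D9T-. The D9T- value came from chr2:168590498-168590890, with 11 tags at D6T- and 10 at D9T-. Of the 4 regions of Sall4 at D6T- 3 were lost. Fbxo15 had 1.59, 1.15, 1.36 and 1.99, 1.05 above the median and 0.10 above it against D6_siNT. Esrrb, a nuclear receptor of naive pluripotency, had 0.654 at D6T-, 0.459 at D6_siNT, no promoter call at D9T- and 1.42 at D12S+, and its D6_siNT pileup scaled to the depth of D9T- would be 6.07 tags, under the weakest region called there. Of its 11 regions at D6T- 10 were lost, and the intronic one that stayed (chr12:87774211-87774739) had 40 tags at D6T-, 12 at D6_siNT and 14 at D9T-. Dnmt3l and Lefty1 (both 1.87 at D6T-) were not called at D6_siNT or D9T-. Dppa4 was first called at D16S+ (0.567). Pou5f1, Klf4 and Sox2 were called on both days, and the part of reads from the viral cDNAs in their values was not tested.

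All 10 genes of senescence and cell cycle arrest and all 15 housekeeping genes kept a promoter call, with medians of -1.17 and -1.34 and none past 2-fold. Over the housekeeping loci 38.5% of the D6T- and 22.5% of the D6_siNT regions were lost, beside 70.1% and 33.0% over all genes. Of 10 genes of H3.3 and its chaperones Dek alone was not called at D9T- (1.92 at D6T-, 1.19 at D6_siNT). H3f3a, which encodes H3.3, had 3.93, 1.42 and 0.984 CPM (-0.72 and -0.68 relative to the median). Of 6 endothelial markers 4 were called at D6T-, 2 at D6_siNT and none at D9T- (summed levels 5.10, 1.56 and 0 CPM), the highest being Tek at D6T- (1.78). Of 6 blood markers 3, 2 and 2 were called (6.12, 1.29 and 2.95), and Ptprc, which defines blood cells, was called in none of them. The 2 kept, Cd34 and Cd68, were 1.09 and 1.01 above the median against D6_siNT. Of 6 keratinocyte markers 3, 1 and 1 were called (3.93, 0.964 and 0.984), with Krt14 uncalled. Over all genes 25.8% of the D6T- promoter calls and 11.5% of the D6_siNT promoter calls were lost. The part of endothelial cells, blood cells or keratinocytes in the results was not tested.

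The 15 promoters gained against D6T- had 7 to 12 tags, and none was called at D6_siNT. For 2 of them, Tmem88 and Sct, the D9T- region overlapped a D6T- region outside the promoter window. Mup6 belongs to the multigene family of major urinary proteins, whose copies can share reads. It had 10 tags (0.757 CPM) at D9T- and 2.67 at D12S+, 3.07 at D16S+ and 2.37 in iPSCs, with no call in the earlier libraries. Mal, a lipid raft protein gene, had 21 tags at D3, 11 at D9T- and 9 at D12S+. Of the 10552 promoters called in all 3 libraries, 33 lay at least 2-fold below and 20 at least 2-fold above the median against both references. Both comparisons use the same D9T- library, so passing both is not 2 independent observations. The genes named here were picked after their values were seen. Sema3b, a secreted semaphorin, had 119 tags at D6T-, 45 at D6_siNT, 11 at D6_siH3.3 and 8 at D9T- (-1.93 and -1.92 relative to the median). Cdk1, the mitotic kinase, had 118, 49, 32 and 15 tags (-1.01 and -1.14), and Msx1, a homeobox gene, 67, 22, 19 and 7 (-1.29 and -1.08). Sema3b, Cdk1 and Msx1 were higher again at D12S+, with 3.01, 3.52 and 1.42 CPM beside 0.605, 1.14 and 0.530 at D9T-, so their falls rest on the D9T- library. Lamb3, a laminin chain, had 39, 13, 13 and 21 tags (1.08 and 1.26), and E2f2, a cell cycle factor, 36, 15, 17 and 21 (1.19 and 1.06). At D12S+ Lamb3 and E2f2 had 1.14 and 1.08 CPM, beside 1.59 each at D9T-.

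The genes with the most lost regions had long models. Gm20388 (4435 kb) lost 355 of 447 regions, Fgfr2 (3009 kb as annotated) 200 of 276, Arfip1 71 of 87, Pde4d 70 of 97 and Rbms3 61 of 75. Of the regions these genes had at D6_siNT, 63 of 143, 34 of 105, 6 of 20, 11 of 33 and 12 of 23 were lost. The genes with the most gained regions were Gm13242, Gm2792 and Trpm8 with 10 each, Heatr7b1 with 7 and Tmem181b-ps with 6. Of these gained regions 2, 2, 4, 0 and 0 were also uncalled at D6_siNT. By chromosome the medians of common regions lay between -1.14 and -0.97, and between 70.5% and 78.4% of regions were lost. Gained regions numbered from 6 on chromosome 19, with 801 common regions, to 93 on chromosome 4, with 2078.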

How the data were processed

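ATAC-Seq peak lists of 9 libraries, 1 per condition, were used. The authors mapped reads to mm9 with STAR, removed duplicates with Picard and, as their methods state, mitochondrial and ambiguously mapped reads, and called peaks per library with MACS2 (2.1.0.20151222 per the file headers). The deposited lists give, for each summit, the pileup signal (extended tags, not scaled for depth), the fold enrichment as a ratio to evenly spread tags and the −log10 q-value.

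Overlapping peaks were merged on chromosomes 1 to 19 (Python 3.11.15, numpy 2.4.6, pandas 2.3.3, scipy 1.17.1). Regions sharing at least 1 bp were common. The highest pileup was scaled to the total tags of the file header (CPM), and log2 changes were called past 2-fold from the median. Positions, genes and sequences came from mm9 (NCBIM37) with GENCODE vM1. Motifs were searched on both strands in 200 bp around the highest summit. The total tags were 13213117 to 31714845, so D9T- was the shallowest library. With 1 library per condition no test was made, and Wilson and exact intervals (95%) cover counting error only. The steps were tested on simulated data, and 9 of 9 checks recovered what was simulated.

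Genes were named by a rule: 12 fixed genes (Thy1, Cdh1, Epcam, Col1a1, Prrx1, Snai2, Fosl1, Fosl2, Jun, Esrrb, Sall4 and Dppa4), from each list at most 4 more of highest promoter pileup among those called on 1 day alone or past 2-fold, the 5 strongest regions of each class and the 5 genes with the most gained or lost regions. Other genes in the text were named after their values were seen. The members and lists were chosen with earlier results of these data known. Alternatives were the day 6 library, equal numbers, overlap, thresholds, centring, promoter and motif windows, and equal numbers of D12S+ regions. Leaving out multi-copy regions and requiring both day 6 libraries were added after seeing the data.

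The values of 1 gene of the epithelial list are not reported here.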

Additional observations from a re-analysis of the deposited data

How the results depend on the processing

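No paired analysis was possible because each condition had 1 library. For the same reason no library was left out. D9T- was the shallowest library, which limits what a missing call shows.

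With D6_siNT in place of D6T-, 6905 regions were gained and 17026 lost, and the median log2 change turned from -1.02 to 0.22, with 516 common regions past 2-fold up and 439 down. The promoter shares of gained and lost regions were 15.4% and 16.4%, the AP-1 shares 21.7% and 31.9%, and the shares called at D12S+ 50.9% and 41.6%.

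With equal numbers of regions, 8981 were gained and 11323 lost, the median was -1.21, and 621 and 434 regions passed 2-fold up and down. The promoter shares of gained and lost regions were 13.5% and 12.7%, the AP-1 shares 19.7% and 50.7%, and the shares called at D12S+ 48.5% and 48.1%, so that the difference at D12S+ was nearly gone.

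With a −log10 q-value of at least 4, 450 regions were gained, 2140 common regions passed 2-fold up and 538 down, the promoter share of lost regions was 11.9%, the AP-1 shares of gained and lost regions were 13.6% and 37.3%, and the shares called at D12S+ were 47.1% and 26.2%. With the same lowest scaled pileup, 1301 regions were gained, and the lost regions had an AP-1 share of 38.1% and a D12S+ share of 22.3%.

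With fold enrichment in place of pileup the median was -1.21. With at least 20 tags in 1 library, 1233 regions passed 2-fold up. Without centring 139 passed 2-fold up and 16734 down, and centred on regions called in all 9 libraries 5125 and 306. The split of higher against lower calls thus rests on the centring.

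When promoters were cut to 1 kb before and 100 bp after the start site, the promoter shares of gained and lost regions were 6.39% and 6.44%. With a motif window of 400 bp the AP-1 shares were 14.6% and 42.8%. With an equal number of D12S+ regions the shares called at D12S+ were 22.9% and 10.3%.

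Among single-copy regions only, 915 regions were gained, more than the 814 without that filter. Part of these 915 therefore overlapped a D6T- region that the filter left out, and they are not a subset of the 814. In this setting the promoter share of gained regions was 13.9% and the AP-1 share of lost regions 36%. The shares of gained and lost regions called at D12S+ were 45.1% and 19%. Against both day 6 libraries 14146 regions were lost, with a promoter share of 13.5%, an AP-1 share of 38.4% and a D12S+ share of 41.7%, and 34.4% of the gained regions were called at D12S+, so that the order at D12S+ turned. The AP-1 share was higher in lost than in gained regions in each of these settings where both were computed. The cause of these moves was not tested. Of the 96 comparisons of a value with its alternative 42 kept their value within the limits set, 53 moved and 1 reversed.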
